A study of Mus musculus with 2 samples.

Results

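The genes described here are those of the antioxidant defence governed by the transcription factor NRF2 (gene Nfe2l2), with the enzymes of glutathione, thioredoxin and peroxide metabolism. They were chosen as a list of 47 gene symbols. A gene was measured where a probe's accession mapped to its symbol, and it was represented by its brightest probe. All 47 were well above background on both arrays, out of 16774 named genes above background on at least 1 array. Of the 47, 18 were set apart as known NRF2 targets: Nqo1, Gclc, Gclm, Gsr, Srxn1, Txn1, Txnrd1, Prdx1, Sqstm1, G6pdx, Pgd, Me1, Taldo1, Tkt, Abcc1, Abcc4, Gsta4 and Gstm1. A further 3 (Cat, Gpx1 and Prdx2) were set apart as the peroxide-removing enzymes most abundant in red cells.

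The study hybridised 2 one-colour Agilent arrays, 1 per group. The control array held RNA of PBS-treated mouse spleen and the other RNA of SiO2-remodelled spleen, where SiO2 is silica. Each array held a pool of 5 spleens of female mice harvested on day 19 after the first injection; strain and age are not given in the sources used here. Because each group is 1 pool, no difference has a test or an error between animals, and the values describe these pools.

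NRF2 is held in the cytoplasm by KEAP1, which presents it for destruction; oxidants and electrophiles modify KEAP1, and NRF2 then enters the nucleus and binds antioxidant response elements with small MAF proteins. Its targets make glutathione, reduce quinones, recycle thioredoxin and supply NADPH. Red cells carry oxygen and iron without being able to renew their proteins, and rely on catalase, glutathione peroxidase 1 and peroxiredoxin 2 to remove hydrogen peroxide. The spleen filters aged red cells and, in mice, also makes red cells.

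All signals are given as log2 of the processed intensity relative to the 75th percentile of the same array, which was an intensity of 670.0 for PBS and 469 for SiO2. Differences are the SiO2 pool minus the PBS pool on that scale, and are called at 2-fold, a log2 difference of 1. Spots well above background came to 75.5% (PBS) and 74.9% (SiO2), and no spot was saturated. The scanner software's own error estimate, carried to the difference, was 0.204 to 0.215 for the members, with a median of 0.204. It is a nearly fixed share of the signal. Over probes spotted 10 times, the SD of the difference had a median of 0.0589 (212 probes). Both errors cover spots only. Markers of B cells (9 of 10 listed), T cells (10 of 10) and splenic stroma (5 of 6) were above background on both arrays, so the markers of the labelled tissue were present.

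The antioxidant genes split into a minority that was higher in the SiO2 pool and a majority near 0. Of 47, 10 (21.3%) were at least 2-fold higher and 0 at least 2-fold lower, against 6.62% and 3.70% of all 16774 genes. The members were chosen with earlier results of these data known, so these shares are a description. All 47 were above background on both arrays, whereas 880 of the 16774 genes were so on 1 array only. The 10 were Mgst3, Gstm5, Prdx3, Cat, Gclm, Nqo1, Prdx2, Gpx1, Gclc and Txnrd2. The members' median was 0.15, beside 0.030 for all genes, and the values ran from -0.64 (Me1) to 2.48 (Mgst3). All 3 red cell antioxidants were among the 10, with a median of 1.24, whereas 3 of the 18 NRF2 targets were, with a median of 0.16. The remaining 26 members had 4 at least 2-fold higher and a median of 0.056. The 18 are a chosen set and not all NRF2 targets. Hmox1, for example, is in the wider list described below, so these shares depend on the split. In a whole tissue, more cells of a type and more RNA per cell cannot be told apart.

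**Figure D1:**
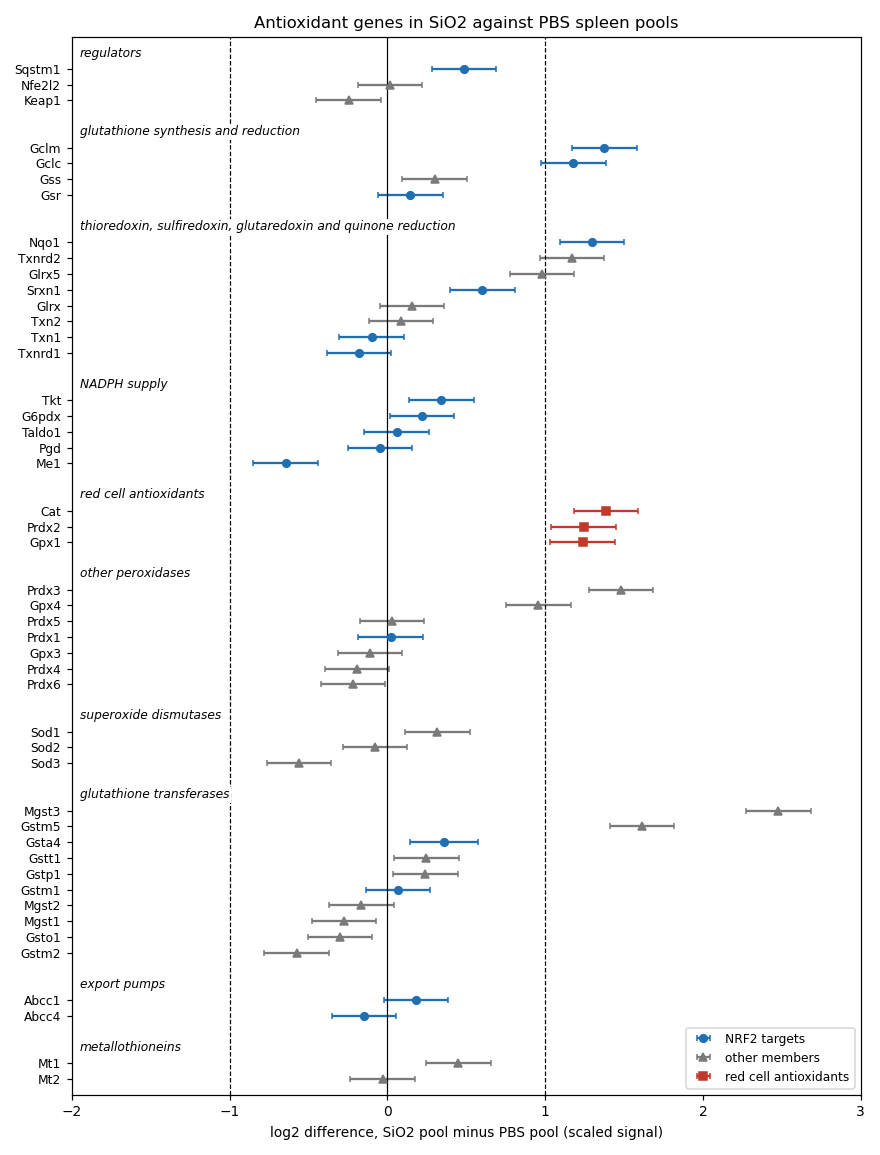
Log2 difference of scaled signal (SiO2 pool minus PBS pool, x axis) for each of the 47 genes, grouped by role; points are 1 array per pool, bars the scanner software's error estimate, and dashed lines mark 2-fold. Mgst3 lies farthest to the right at 2.48, the red cell antioxidants (squares) lie between 1.24 and 1.39, and most NRF2 targets (circles) lie near 0.

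Genes that were higher in the SiO2 pool were found at low and at high signal. The 10 higher members had scaled signals in the PBS pool from -2.04 (Nqo1) to 4.59 (Gpx1). The other 37 members ran from -3.78 (Gsta4) to 5.35 (Txn1). Before scaling, 13 of the 47 had a higher intensity in the SiO2 pool and 34 a lower one, and the 75th percentile of the SiO2 array was 0.701 times that of the PBS array.

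**Figure D2:**
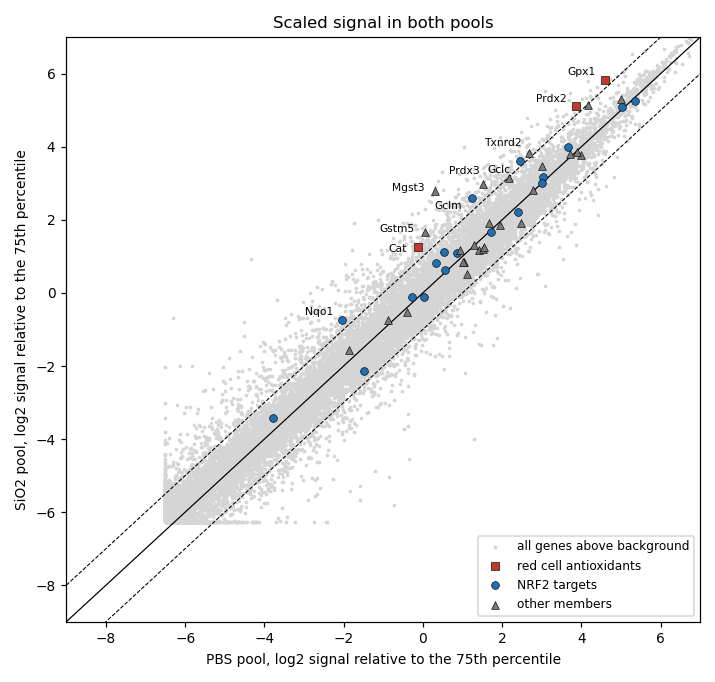
Scaled log2 signal in the PBS pool (x axis) against the SiO2 pool (y axis) for all genes above background (grey) and the 47 members (coloured by class); the solid line marks equal signal and the dashed lines 2-fold. The 10 named genes lie above the upper dashed line, and no member lies below the lower one.

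Antioxidant response elements were searched in the members' promoters because NRF2 binds its targets through them. The RefSeq promoter windows of build GRCm38.p6, 250 bases before and 50 bases after each start site, held 41 of the 47 members in 52 windows. Abcc1, Gclc, Gsr, Gsta4, Prdx6 and Sod3 were not in the table. The element's core, TGACNNNGC, was searched on both strands. It was found for 13 of the 41 members (31.7%) and 8 of 14 NRF2 targets (57.1%), beside 14.0% of all 27025 genes in the table. The members were listed partly as known targets of the factor that binds this element, so the shares are a description. The sites follow as they read on the strand of the motif, 5′ to 3′, with the core in capitals and 10 bases on each side; the genes at least 2-fold higher come first.
Gclm, chr3:122245413-122245441, minus strand: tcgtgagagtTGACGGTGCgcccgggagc
Gstm5, chr3:107895802-107895830, plus strand: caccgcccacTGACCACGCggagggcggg
Srxn1, chr2:152105542-152105570, minus strand: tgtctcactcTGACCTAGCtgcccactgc
Sod1, chr16:90220696-90220724, minus strand: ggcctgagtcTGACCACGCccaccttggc
G6pdx, chrX:74428919-74428947, plus strand: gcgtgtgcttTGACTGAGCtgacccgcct
Prdx1, chr4:116685456-116685484, minus strand: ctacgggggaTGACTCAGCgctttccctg
Nfe2l2, chr2:75704885-75704913, minus strand: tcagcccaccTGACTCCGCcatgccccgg
Mt2, chr8:94172529-94172557, plus strand: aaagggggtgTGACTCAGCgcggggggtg
Pgd, chr4:149166061-149166089, minus strand: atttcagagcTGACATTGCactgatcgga
Abcc4, chr14:118706226-118706254, plus strand: cggcccgcccTGACCCCGCctctcggggc
Abcc4, chr14:118676936-118676964, minus strand: aataatctcgTGACTCTGCcgtggtggat
Txnrd1, chr10:82859104-82859132, minus strand: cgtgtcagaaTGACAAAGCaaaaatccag
Mgst1, chr6:138140461-138140489, minus strand: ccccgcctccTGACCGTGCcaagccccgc
Me1, chr9:86695902-86695930, minus strand: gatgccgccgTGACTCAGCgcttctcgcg
The core begins 240 bases before the start site in Nfe2l2, 134 in Gclm, 133 in Prdx1, 42 in Gstm5 and 6 in Me1. In Srxn1 and Pgd it begins after the start site, 28 and 3 bases into the transcribed sequence, and in Me1 it runs across it. In the other genes it lies before it. Of the 13 members with such a core, 2 were at least 2-fold higher, Gclm and Gstm5, and their median difference was 0.017. Of the 28 without it, 7 were at least 2-fold higher and the median was 0.24, where 6.62% of all genes were at least 2-fold higher. The core reads TGACTCAGC in Prdx1, Mt2 and Me1, whose differences were 0.020, -0.031 and -0.64. Gstm5 and Sod1 share the core TGACCACGC, and their differences were 1.62 and 0.32. A core in a window does not show that the factor binds there, and elements farther from the start were not searched.

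The regulators themselves differed little. Nfe2l2, which encodes NRF2, had scaled signals of 2.79 in PBS and 2.81 in SiO2, a difference of 0.017. Keap1, its inhibitor, stood at 1.42 in PBS and 1.17 in SiO2 (-0.25). Sqstm1, the autophagy receptor p62 that can draw KEAP1 away and is itself an NRF2 target, stood at 0.32 in PBS and 0.81 in SiO2, which is 1.40-fold higher and within 2-fold. Message levels of Nfe2l2 and Keap1 do not report the amount of NRF2 protein, which is set mainly by its destruction.

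Glutathione synthesis showed a higher first step and a smaller difference at the later steps. Gclc and Gclm encode the catalytic and the modifier subunit of glutamate-cysteine ligase, the rate-limiting enzyme. Gclc stood at 2.44 in PBS and 3.62 in SiO2, 2.26-fold higher in SiO2. Gclm stood at 1.23 in PBS and 2.60 in SiO2, 2.59-fold higher. Both subunits were thus higher by a similar amount, with differences of 1.18 and 1.37. Gss, the synthetase of the next step, stood at -1.85 in PBS and -1.55 in SiO2, a difference of 0.30. Gsr, the reductase that recycles oxidised glutathione, stood at 3.04 in PBS and 3.18 in SiO2, a difference of 0.15, and its other probe gave 0.26. The differences of Gss and Gsr were smaller than those of both ligase subunits.

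The thioredoxin reductases of the cytosol and the mitochondria differed from each other. Nqo1, the quinone reductase most used as a readout of NRF2, stood at -2.04 in PBS and -0.74 in SiO2 and was 2.45-fold higher, from intensities of 163 and 281 before scaling. Txnrd2, the mitochondrial thioredoxin reductase, stood at 2.68 in PBS and 3.84 in SiO2 and was 2.25-fold higher. Its cytosolic counterpart Txnrd1, an NRF2 target, stood at 2.39 in PBS and 2.21 in SiO2, a difference of -0.18. The 2 reductases therefore lay apart by more than 1 log2 unit. Neither thioredoxin followed Txnrd2, with -0.100 for the cytosolic Txn1 (5.35 in PBS and 5.25 in SiO2) and 0.084 for the mitochondrial Txn2 (3.72 in PBS and 3.80 in SiO2). Srxn1, sulfiredoxin, which repairs overoxidised peroxiredoxins, stood at 0.53 in PBS and 1.13 in SiO2 and was 1.52-fold higher, within 2-fold. Glrx5, a mitochondrial glutaredoxin of iron-sulfur cluster assembly needed for haem synthesis, stood at 4.18 in PBS and 5.16 in SiO2, or 1.97-fold higher and just under the threshold. The cytosolic Glrx stood at -0.89 in PBS and -0.73 in SiO2, a difference of 0.15.

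NADPH supply did not differ 2-fold in any of its 5 genes, and its median was 0.058. G6pdx and Pgd, the dehydrogenases of the pentose phosphate pathway, had differences of 0.22 (0.86 in PBS and 1.08 in SiO2) and -0.049 (1.72 in PBS and 1.67 in SiO2). Among the enzymes of its non-oxidative branch, Tkt stood at 3.66 in PBS and 4.01 in SiO2 (0.34) and Taldo1 at 5.03 in PBS and 5.09 in SiO2 (0.058). Me1, malic enzyme, had the lowest difference of all 47, -0.64, at -1.48 in PBS and -2.13 in SiO2. Its other 2 probes gave -0.18 and -0.35, and with normexp background correction the value was -0.36.

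The red cell antioxidants were higher together. Cat, catalase, stood at -0.13 in PBS and 1.25 in SiO2 and was 2.61-fold higher; its other probe gave 1.11. Gpx1, glutathione peroxidase 1, stood at 4.59 in PBS and 5.83 in SiO2 and was 2.36-fold higher. Prdx2, the peroxiredoxin that is among the most abundant red cell proteins, stood at 3.87 in PBS and 5.11 in SiO2 and was 2.37-fold higher. The 3 differences lay within 0.15 of each other, which is less than the software error of 0.204. The span is not particular to them, as the NRF2 targets Nqo1 (1.30) and Gclm (1.37) also lay in it. Erythroid markers, none of which is a member, were higher in the same array. Among these 18 genes the median was 1.69, and 16 passed 2-fold on the higher side and 0 on the lower, with a range from -0.42 (Hemgn) to 2.82 (Trim10), and a summed scaled signal, in units of the 75th percentile, of 139 in PBS and 304 in SiO2. The globin-reduced RNA came from a kit with differential lysis of red and white cells, per the labels' protocols. The part of erythroid cells in the members' differences was not tested.

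The other peroxidases were mostly near 0, except Prdx3 and Gpx4. Prdx3, the mitochondrial peroxiredoxin, stood at 1.51 in PBS and 2.99 in SiO2 and was 2.79-fold higher; its probe was spotted 10 times, and the single spots ranged from 1.41 to 1.55 (SD 0.042). Gpx4, the enzyme that reduces lipid peroxides in membranes and holds back ferroptosis, stood at 2.18 in PBS and 3.14 in SiO2, 1.94-fold higher and just under the threshold. Prdx1, an NRF2 target of the cytosol, stood at 3.00 in PBS and 3.02 in SiO2 (0.020), while its dimmer probe gave 0.55. Prdx5, found in several compartments, stood at 1.28 in PBS and 1.31 in SiO2 (0.028). The endoplasmic reticulum enzyme Prdx4 stood at 1.05 in PBS and 0.86 in SiO2 (-0.19), and the secreted Gpx3 at -0.41 in PBS and -0.52 in SiO2 (-0.11). Prdx6 stood at 3.98 in PBS and 3.76 in SiO2, a difference of -0.22, while its 3 dimmer probes gave 0.24 to 0.36, so its sign is not settled. By their brightest probes, the differences of Prdx2 and Prdx3 were thus more than 1 log2 unit above those of the other peroxiredoxins.

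The superoxide dismutases differed less than 2-fold. Sod1, the cytosolic copper-zinc enzyme, stood at 4.99 in PBS and 5.31 in SiO2 (0.32). Sod2, the mitochondrial manganese enzyme, stood at 1.95 in PBS and 1.87 in SiO2 (-0.080). Sod3, the secreted enzyme that binds extracellular matrix, was 1.48-fold lower at 2.47 in PBS and 1.91 in SiO2, and it lay below 0 under the 8 alternatives that measured it, from -0.59 to -0.23.

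The glutathione transferases held both the largest difference of the list and some of its lowest. Mgst3, a microsomal transferase with glutathione peroxidase activity, stood at 0.30 in PBS and 2.78 in SiO2 and was 5.57-fold higher, from intensities of 827 and 3230.4 before scaling. Its other probe gave 2.31, and among 16774 genes its difference ranked 55 from the highest. Its relatives were within 2-fold, as Mgst1 stood at 1.54 in PBS and 1.26 in SiO2 (-0.27) and Mgst2 at 1.01 in PBS and 0.85 in SiO2 (-0.16). In the mu class, Gstm5 stood at 0.048 in PBS and 1.66 in SiO2 and was 3.06-fold higher. By contrast Gstm2 was 1.49-fold lower at 1.10 in PBS and 0.53 in SiO2, while another probe gave -0.36 and the dimmest was not well above background in SiO2. Gstm1 stood at 0.57 in PBS and 0.64 in SiO2 (0.068). The genes of this class are close copies, and probe sequences were not used here, so cross-hybridisation between them was not tested. The pi, theta and alpha class members Gstp1, Gstt1 and Gsta4 had differences of 0.24, 0.25 and 0.36, from scaled signals in PBS of 1.68, 0.94 and -3.78. Gsta4 was spotted 10 times, and its spots ranged from 0.18 to 0.48 (SD 0.094). Gsto1, the omega class enzyme, stood at 1.51 in PBS and 1.21 in SiO2 (-0.30).

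The export pumps and metallothioneins were within 2-fold. Abcc1, which exports glutathione conjugates, stood at -0.28 in PBS and -0.10 in SiO2 (0.18), and Abcc4, a pump for cyclic nucleotides and organic anions, at 0.030 in PBS and -0.12 in SiO2 (-0.15). Mt1, a cysteine-rich metal-binding protein, stood at 3.02 in PBS and 3.47 in SiO2 (0.45), and its neighbour Mt2 at 3.88 in PBS and 3.85 in SiO2 (-0.031). Metallothionein genes are switched on by zinc through metal response elements, whose core was searched as TGCGCNC or TGCACNC on both strands. It was present in both genes' windows, beside 28.2% of all genes in the table. The matches follow with the core in capitals.
Mt1, chr8:94179056-94179082, plus strand: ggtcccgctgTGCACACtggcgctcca
Mt1, chr8:94179081-94179107, plus strand: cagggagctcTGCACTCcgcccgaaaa
Mt1, chr8:94179099-94179125, plus strand: gcccgaaaagTGCGCTCggctctgcca
Mt2, chr8:94172385-94172411, plus strand: gcatcgcctcTGCACCCggcccctcgg
Mt2, chr8:94172480-94172506, plus strand: gcagacccttTGCGCTCagctcctttg
Mt2, chr8:94172558-94172584, minus strand: ggacagagccTGCACACgccctccccc
Mt2, chr8:94172612-94172638, minus strand: cccctgggccTGCGCACgacccgaatt
Within its window Mt1 had 3 such matches and Mt2 had 4. Of these, 2 in Mt1 and 1 in Mt2 begin after the start site that the window is built on. Elements outside the windows, and other start sites, were not searched. A link between the matches and the differences of Mt1 and Mt2 was not tested.

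A wider list of 76 genes of the same pathways, of which 73 were above background, was called higher about as often as all genes. Of these, 5 (6.85%) were at least 2-fold higher and 1 (1.37%) lower, beside 6.62% and 3.70% of all genes, and the median was 0.045. Chac1 and Chac2, which break glutathione down, were 4.43-fold and 3.34-fold higher. Hagh and Glo1, the glyoxalases that clear methylglyoxal with glutathione, were 3.95-fold and 2.26-fold higher, and Pir was 3.46-fold higher. Of the small MAF proteins that pair with NRF2, Maff was 2.26-fold lower, while Mafg and Mafk, given beside it after their values were seen, were 1.68-fold and 1.67-fold higher and within 2-fold. Hmox1, the haem oxygenase that is a classical NRF2 target and is chosen here after its value was seen, stood at 2.99 in PBS and 2.20 in SiO2, 1.73-fold lower and within 2-fold. Slc7a11, the cystine importer and likewise chosen after its value was seen, had a difference of -0.22. Hmox1 and Slc7a11 do not stand for the wider list, in which 38 of the 73 genes were above 0 and 35 below. Slc3a2, Cbr1 and Ptgr1, also picked after their values were seen, had differences of 0.85, 0.71 and 0.70.

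Marker levels of several cell types also differed between the pools. Macrophage markers had a median of -0.94, with 4 of 11 passing 2-fold on the lower side (2 under normexp) and 0 on the higher, and a summed scaled signal of 53.7 in PBS and 30.1 in SiO2; their range was -2.02 to -0.051. Neutrophil markers had 8 of 11 at least 2-fold higher and a median of 2.08, with a sum of 85.8 in PBS and 198 in SiO2 and a range of -0.80 to 3.13. Markers of lipid-laden phagocytes had 5 of 8 at least 2-fold higher, with a median of 2.04 and a sum of 61.9 in PBS and 80.9 in SiO2. Their range was 0.0091 (Lgals3) to 5.63 (Atp6v0d2). Fibroblast markers had 5 of 8 at least 2-fold higher (4 under normexp), with a median of 1.32 and a sum of 37.4 in PBS and 86.7 in SiO2. Their range was -0.86 (Dcn) to 2.80 (Lum), and the receptors Pdgfra and Pdgfrb had 0.091 and 0.27. B cell and T cell markers had medians of -0.50 and -0.20 with none past 2-fold, and hepatocyte markers had 6 of 8 above background with a sum of 0.866 in PBS and 0.701 in SiO2. NK cell markers had a median of -1.88, or -0.98 under normexp background correction. Mesothelial markers had a median of -3.85, which is only a bound because its gene, Upk1b, was not well above background in SiO2, and -1.13 under normexp. Medians were 0.52 for adipocyte and -0.80 for spleen stroma markers. The part of these cell types in the members' differences was not tested.

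**Figure D3:**
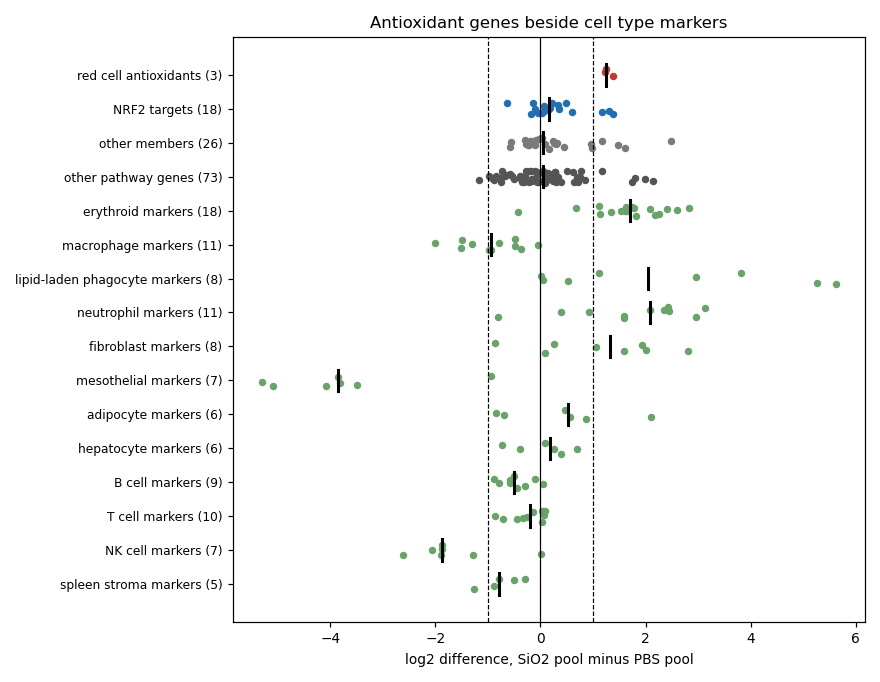
Log2 difference (SiO2 pool minus PBS pool, x axis) of each gene in the member classes, the wider pathway list and the cell type marker lists, with the number of genes measured in brackets; each point is a gene and each bar a list median. Medians are 1.24 for the red cell antioxidants and 0.16 for the NRF2 targets. Among the marker lists, they are 1.32 for fibroblast, 1.69 for erythroid, 2.04 for lipid-laden phagocyte and 2.08 for neutrophil markers.

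The direction of small differences depended on how the arrays were brought to one scale. All 10 members at least 2-fold higher stayed so under each of the 9 alternatives that measured them (the authors' deposited values hold 7 of the 10), and Glrx5 and Gpx4 also passed 2-fold where the arrays were centred on B and T cell markers. Several alternatives could not undo a call. The centring raised every member alike, and leaving out the filter and floor changed no member's value. The other choices of 75th percentile moved all members by a small constant. Averaging over probes could change only Cat and Mgst3 of the 10. All alternatives used the same 2 arrays. Of the 31 members above 0, 27 were above 0 under every alternative that measured them; the authors' deposited values hold 31 of the 47 members. Of the 16 below 0, 3 were below 0 wherever measured, namely Me1 under all 9 alternatives and Gstm2 and Sod3 under 8, as the deposited values do not hold them. The centring on B and T cell markers raised each member's difference by 0.33 and the median of all genes to 0.36, so values between -0.33 and 0 then lay above 0. Relative to that median, the members' median of 0.49 and the NRF2 targets' median of 0.50 again lay close to all genes.

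**Figure D4:**
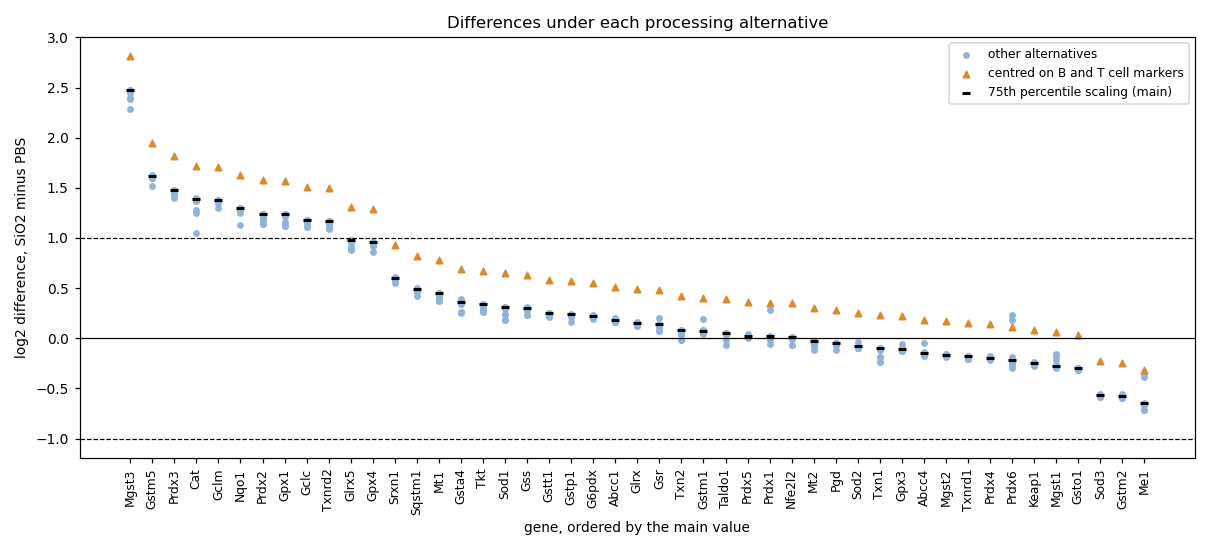
Log2 difference (y axis) of each gene (x axis, ordered by the main value) under the main setting (black bars), centring on B and T cell markers (triangles) and 8 other alternatives (pale points); dashed lines mark 2-fold. The 10 genes at the left stay above 1 under each alternative that measured them, and most genes at the right change sign with the centring.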

How the data were processed

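RNA was prepared with a blood RNA kit and globin reduction and labelled with Cy3, per the labels' protocols. The deposited scanner files hold spot intensity on a linear scale, made with Agilent Feature Extraction 11.0.1.1 per the file headers, or version 9.1 per the submitters' processing notes. That software had already subtracted the background. The authors' deposited matrix holds log2 values of 26049 probes, with a median of 5.68 in both columns. Their normalization was not given in the sources used here, and their scale and sign follow the scanner values (slopes 0.995 and 1.01). For Txn2, Tkt, Pgd and Gstp1 their differences were those found after quantile normalization (-0.013, 0.26, -0.061 and 0.23). They are therefore not an independent alternative to it. For Cat, Mgst3 and Prdx6 they were 1.05, 2.29 and 0.23, nearer to a dimmer probe of each gene (1.11, 2.31 and 0.24).

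Control spots and outlier spots (145 on PBS, 148 on SiO2, of 43020) were left out, repeated spots averaged, and each array's 75th percentile subtracted. Of 39398 probes, 27217 (69.1%) matched 1 symbol through the RefSeq table of GRCm38.p6, used for names only. A probe not above background was raised to the lowest signal above background on its array where it lay below that signal. This touched no member. The members, lists, motifs and the rule naming genes (every member, and other pathway genes past 2-fold) were chosen with earlier results of these data known. Alternatives used limma 3.58.1 and normexp with an offset of 50 on the median spot signal, since the files hold no mean signal. The arithmetic of the calling was checked on simulated arrays, which says nothing about variation between animals or pools.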

Additional observations from a re-analysis of the deposited data

How the results depend on the processing

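No paired analysis was possible because each group is 1 array with no replicate number. The count of members at least 2-fold higher was 10 under 7 of the 9 alternatives. Among these 7, leaving out the filter and floor left every member's value unchanged. The count was 12 with centring on B and T cell markers. It was 7 of 31 members measured in the authors' deposited values, where 5.77% of 12132 genes were at least 2-fold higher. The count at least 2-fold lower was 0 throughout. With centring on B and T cell markers the median log2 differences were 0.49 for all members, 0.50 for NRF2 targets, 1.58 for red cell antioxidants and 0.38 for other pathway genes. In the authors' deposited values they were 0.23, 0.074, 1.12 and -0.091. The red cell median was 1.14 after quantile normalization and 1.18 after cyclic loess. The median of other pathway genes was -0.048 after quantile normalization and 0.14 under normexp, which moved the median of all genes from 0.030 to 0.18. Over all genes, centring on B and T cell markers gave 2182 higher and 284 lower at 2-fold in place of 1111 and 620, and normexp gave 654 and 258. The 75th percentile taken over probes rather than spots, chosen after seeing the data, moved no median by more than the spot spread. Each group was 1 pool, so variation between animals, pools and hybridisations is unknown.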
